A study of Homo sapiens with 18 samples.

Results

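CLIC5, BIRC7, LMTK3, MYT1, KRT9, KNDC1 and DSC3 are 7 genes, of 20833 in the count table, that were read at a high level in ETV6 knockout cells carrying an empty vector and at a low level once wild-type ETV6 was added to those cells. They were selected on those 2 measured levels, so the values of knockout cells with the empty vector or with ETV6 are given as a description with no test. The cells are MEG-01 (Meg01 in the labels), a human megakaryoblastic leukemia line. Cells with the genotype label WT, called unedited here, and cells labelled ETV6-KO, called knockout, each received a lentiviral vector: an empty vector (EV), ETV6, or ETV6 with the R369W change. The 6 groups are unedited EV, unedited ETV6, unedited R369W, knockout EV, knockout ETV6 and knockout R369W, each with 3 libraries taken on day 3 after transduction. All cells were transduced, so no group is free of lentivirus. The sources used here do not give the vector's promoter, any selection of transduced cells, or whether the knockout is 1 clone. They also do not say that replicate libraries came from separate cultures, so p-values measure the spread between these libraries, which may be technical.

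ETV6 is an ETS-family transcription factor that represses genes by binding DNA at sites built on a GGAA core through its ETS domain and by recruiting corepressors such as NCOR and SIN3 with histone deacetylases. R369W changes a residue of that DNA-binding domain. Germline ETV6 variants cause a low platelet count and a predisposition to leukemia, and ETV6 is known in this lineage for its part in megakaryocyte maturation.

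The 7 genes have no common textbook role and are known mainly from other tissues. CLIC5 is a chloride intracellular channel protein linked to ezrin and the cortical actin of hair cells and podocytes. BIRC7, also called livin, is an inhibitor of apoptosis best known from melanoma. LMTK3 is a membrane-anchored kinase of neurons, MYT1 a zinc finger transcription factor of neural and endocrine precursors, and KNDC1 a brain protein with a Ras exchange factor domain. KRT9 is the type I keratin of palm and sole epidermis, and DSC3 is a desmosomal cadherin of stratified epithelium.

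The promoters are shown to let the ETS core be read beside the expression values. Of 35116 windows of 300 bases from RefSeq (GRCh38.p14, 250 bases before to 50 after an annotated start), 9 belong to these genes, 3 of them to CLIC5. GGAA on either strand was found in 7 of the 9 and in 95.5% of all windows, with none in MYT1 or KRT9. The longer CCGGAA, which contains GGAA, was found in 1 of the 9, BIRC7, and in 17.2% of all windows, and CCGGAAGT in 0 of the 9 and 4.14% of all. GGAAGGAA was found in BIRC7 and in 3.67% of all windows. The windows of 3 genes are printed 5′ to 3′ on the gene's strand, chosen for their contrast: BIRC7 had the most matches to GGAA (4), the CLIC5 window at the start that GENCODE also gives for the gene had 3, and MYT1 had 0. Over all windows the median was 3 matches to GGAA. The only MYT1 window lies inside the span that GENCODE gives for the gene, 64102394 to 64242253, so the sequence at that start was not searched. The same holds for LMTK3 on the minus strand, with a window of 48511786 to 48512085 in a span that ends at 48513935. The KNDC1 window ends at 133160268, before the GENCODE start at 133160447. Capitals mark GGAA, or TTCC where GGAA lies on the other strand.
BIRC7, plus strand, chr20:63235655-63235954: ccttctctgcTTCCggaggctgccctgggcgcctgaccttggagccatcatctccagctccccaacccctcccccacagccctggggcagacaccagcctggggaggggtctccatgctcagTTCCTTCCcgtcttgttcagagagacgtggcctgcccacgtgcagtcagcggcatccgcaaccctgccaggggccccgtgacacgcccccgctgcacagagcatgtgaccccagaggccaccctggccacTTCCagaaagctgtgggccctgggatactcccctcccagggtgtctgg
CLIC5, minus strand, chr6:46080299-46080598: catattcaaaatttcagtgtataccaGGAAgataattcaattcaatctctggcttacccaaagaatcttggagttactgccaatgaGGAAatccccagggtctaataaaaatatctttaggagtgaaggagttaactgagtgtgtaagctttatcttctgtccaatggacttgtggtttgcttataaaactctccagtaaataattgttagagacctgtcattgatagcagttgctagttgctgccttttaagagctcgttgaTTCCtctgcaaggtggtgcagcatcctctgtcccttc
MYT1, plus strand, chr20:64164202-64164501: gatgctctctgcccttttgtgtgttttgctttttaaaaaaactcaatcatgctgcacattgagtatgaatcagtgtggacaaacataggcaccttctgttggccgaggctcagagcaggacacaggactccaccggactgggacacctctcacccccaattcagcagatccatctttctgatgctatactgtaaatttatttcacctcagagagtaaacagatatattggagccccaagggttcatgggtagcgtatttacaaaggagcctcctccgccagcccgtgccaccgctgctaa
The windows differ widely in composition, from 39.7% G and C in this CLIC5 window to 81.3% in KNDC1, against a median of 58.7% over all windows. A match is only a match of letters, and gene counts do not show which start was used.

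The libraries held 12577816 to 18927506 gene reads, and a count of 0 allows up to 0.158 to 0.239 CPM (gene reads scaled to a library of 1000000) when 3 reads are taken as the limit; this covers counting error only. Reads from the ETV6 gene, vector and endogenous together, ran from 39.4 to 147 CPM in the 6 EV libraries and from 1324 to 2780 CPM in the 12 others, and gene counts show neither the edit nor the variant. The share of reads that did not align was 0.527% to 0.809% with EV and 0.279% to 0.349% with ETV6 or R369W; its part in any comparison with EV was not tested. Of 14 megakaryocyte markers, 12 reached 1 CPM in some library, with a summed level of 1395 to 1711 CPM in unedited EV, 1575 to 1984 in knockout EV and 1746 to 2322 in knockout R369W libraries, while PF4 had no read. Of 11 tested markers edgeR called 1 between the EV groups, where 4.33% of tested genes were called (list median log2 0.64, all genes -0.002). This was FLI1, a megakaryocytic ETS factor, higher in knockout cells (195 ± 51.2 against 74.8 ± 23.9 CPM, SD, n = 3, edgeR adjusted p = 0.0405). The call was lost without 5 of the 6 libraries (up to 0.190), and the part of FLI1 in the results was not tested. Between knockout R369W and unedited EV cells 2 were called, FLI1 and GP1BB, where 9.31% of tested genes were. GP1BB stood at 1.76 ± 0.790 against 0.284 ± 0.157 CPM (edgeR adjusted p = 0.0315, lost without 4 of the 6 libraries, up to 0.137). Because these are bulk libraries, fewer cells that express a gene and less RNA per cell cannot be told apart. For 15 libraries, those with the same replicate number in the titles deviated together within a genotype; the knockout R369W numbers did not follow the other knockout numbers, which touches no group mean.

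In knockout EV cells the 7 genes ranged over more than an order of magnitude. CLIC5 was read at 234.5, 196.9 and 254.4 CPM in replicates 1, 2 and 4, and LMTK3 at 58.96, 34.72 and 61.70 CPM. BIRC7 was read at 68.21, 26.75 and 41.83 CPM and DSC3 at 78.46, 28.74 and 50.40 CPM, each highest in replicate 1 and lowest in replicate 2. KRT9 was read at 39.89, 20.69 and 12.70 CPM, MYT1 at 16.01, 12.65 and 9.58 CPM, and KNDC1 at 7.13, 10.81 and 10.52 CPM. The spread between libraries was smallest for CLIC5 (SD 12.8% of the mean) and largest for KRT9 (57.2%). Per kilobase of merged exon, BIRC7 led with 29.2 ± 13.4 RPKM (CPM divided by that length; SD, n = 3), level with CLIC5 at 24.3 ± 3.11 within the spread. KRT9 (10.7 ± 6.10), LMTK3 (9.14 ± 2.62) and DSC3 (7.45 ± 3.53) followed and did not differ beyond their spread, with MYT1 (1.98 ± 0.50) and KNDC1 (1.19 ± 0.256) last. Merged exon lengths, 1562 bases for BIRC7 and 9395 for CLIC5, count every annotated exon, so a gene read from a short isoform is understated on this scale.

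In unedited EV cells the same genes were at or near 0, except DSC3. KRT9 and KNDC1 had 0 reads in all 3 libraries, BIRC7 and MYT1 had 1 read each in the group, LMTK3 had 5 and CLIC5 had 10 (7, 2 and 1 in replicates 2, 3 and 4). DSC3 had 9, 10 and 22 reads, 0.932 ± 0.384 CPM (SD, n = 3). All 7 genes lay above every unedited EV library in every knockout EV library, as did 13.7% of the 12262 tested genes. The knockout EV libraries chose the genes, so this count carries no test. On summed reads scaled by library size, KRT9 was at least 378-fold and KNDC1 at least 131-fold higher in knockout EV cells, taking 3 reads over the unedited group.

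With ETV6 added back to knockout cells, the fitted change from knockout EV was largest for CLIC5, the actin-linked channel protein, at log2 -7.73 (SE 0.61). CLIC5 was read at 0.923, 1.33 and 0.994 CPM there, 0.473% of its knockout EV mean. MYT1, the neural transcription factor, had 4, 2 and 1 reads (log2 -6.09, SE 0.53), and the kinase LMTK3 had 12, 9 and 13 (log2 -5.89, SE 0.56). BIRC7 was at log2 -5.15 (SE 0.56), KRT9 at -4.98 (SE 0.74) and KNDC1 at -4.69 (SE 0.61), with 2.82%, 3.18% and 3.81% of their knockout EV means left. DSC3, the cadherin, had the smallest change, log2 -3.90 (SE 0.56), and kept 6.74% at 5.61, 2.11 and 2.91 CPM. In this comparison all 7 lay below every knockout EV library, as did 10.8% of tested genes; these libraries chose the genes. Of the 12262 genes, 9 changed at least as far as DSC3 from a knockout EV mean of at least 9.49 CPM, the level of KNDC1. Besides the 7 they were AK7, an adenylate kinase, at log2 -5.03 (SE 1.22), and CD79A, a chain of the B cell receptor, at -4.60 (SE 0.58), both named after their values were seen.

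After adding ETV6 back, the group mean was above that of unedited EV cells for all 7 genes, and no library overlapped. For MYT1 that rests on 1 read in knockout ETV6 replicate 4 (0.0765 CPM) against 1 read in unedited EV replicate 2 (0.0738 CPM), a gap set by library size. For KNDC1 the lowest library (2 reads, 0.154 CPM) lay under what 0 reads allow in unedited EV libraries. KRT9 had 7, 19 and 4 reads against 0, at least 11.0-fold higher, and KNDC1 had 2, 8 and 4 against 0, at least 5.13-fold. For BIRC7 the 50 reads against 1 gave a ratio of 55.0 (95% exact counting interval 9.42 to 2214), and for MYT1 the 7 against 1 gave 7.70 (0.989 to 347). CLIC5 stood 4.36-fold (log2 2.12, SE 1.04), LMTK3 6.81-fold (log2 2.77, SE 0.84) and DSC3 3.65-fold (log2 1.87, SE 0.59) above unedited EV cells. Among tested genes, 16.7% lay above unedited EV cells in all libraries in this comparison, which is a description because the knockout ETV6 libraries chose the genes.

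R369W in knockout cells asks whether the variant lowers these genes as ETV6 does. It left 6 of the 7 at 71.5% to 112% of their knockout EV mean, and DSC3 at 18.3%. BIRC7 was read at 35.15, 54.20 and 52.24 CPM in replicates 1, 2 and 4, MYT1 at 12.62, 12.01 and 13.73 CPM, and KRT9 at 22.22, 14.19 and 45.38 CPM, with means of 104%, 100.3% and 112% of knockout EV. LMTK3 (33.67, 62.98 and 31.57 CPM) and KNDC1 (10.30, 8.63 and 3.28 CPM) had means of 82.5% and 78.1%. The libraries of these 5 genes overlapped those of knockout EV cells. CLIC5, at 166.1, 176.2 and 147.8 CPM, lay below every knockout EV library at 71.5% of the mean (log2 -0.46, SE 0.42). DSC3, at 7.43, 7.58 and 13.88 CPM, lay below every knockout EV library at 18.3% of the mean (log2 -2.43, SE 0.52) and above every knockout ETV6 library. Of tested genes, 10.9% lay below knockout EV cells in all libraries in this way.

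Set against ETV6 in the same cells, R369W cells were higher for all 7 genes with no overlap, as for 7.01% of tested genes. The difference in log2 was 7.26 (SE 0.61) for CLIC5, 6.11 (SE 0.53) for MYT1, 5.64 (SE 0.56) for LMTK3, 5.22 (SE 0.57) for BIRC7, 5.15 (SE 0.75) for KRT9 and 4.36 (SE 0.60) for KNDC1. For DSC3 it was 1.47 (SE 0.52). Both comparisons use libraries that chose the genes and share their knockout R369W libraries, so they carry no test. ETV6 gene reads were 1817, 2421 and 1796 CPM with ETV6 and 2100, 1324 and 1646 CPM with R369W, which overlap.

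Tests were made only where neither group had chosen the genes, with the edgeR quasi-likelihood test and Benjamini-Hochberg adjustment over 12262 genes. Knockout R369W cells share their genotype with the knockout EV cells that chose the genes, and libraries of these groups deviated together. Tests of knockout R369W against unedited cells are therefore not independent of that choice. All 7 genes had passed the count filter, which asks for reads in as many libraries as 1 group holds, so a gene can pass through its knockout reads alone. Knockout R369W cells against unedited EV cells asks whether the genes stay above the unedited level when the variant is the vector. All 7 were higher, where 5.43% of tested genes were called higher, and all 7 were without overlap of libraries, as were 15.3% of tested genes. On the log2 scale CLIC5 was 9.39 higher (SE 0.72, adjusted p = 2.04e-05), LMTK3 8.41 higher (SE 0.70, adjusted p = 2.04e-05) and DSC3 3.34 higher (SE 0.59, adjusted p = 0.00367). BIRC7 had a read ratio of 2023 (95% counting interval 363 to 79940, adjusted p = 2.78e-05) and MYT1 of 547 (97.7 to 21640, adjusted p = 2.04e-05). KRT9 was at least 390-fold and KNDC1 at least 105-fold higher (adjusted p = 5.10e-04 and 9.98e-05). All 7 calls held without each of the 6 libraries in turn.

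Knockout against unedited cells, both with R369W, asks how much of the level depends on the genotype under the same vector. Again all 7 were higher in knockout cells, where 2.59% of tested genes were called higher. All 7 did so without overlap of libraries, as did 13.4% of tested genes. KRT9, the epidermal keratin, differed most, by log2 7.12 (SE 0.88, adjusted p = 0.00150), from 4, 3 and 0 reads in unedited cells. KNDC1 differed by 5.26 (SE 0.65, adjusted p = 8.94e-04), LMTK3 by 4.87 (SE 0.53, adjusted p = 1.95e-04) and BIRC7 by 4.14 (SE 0.53, adjusted p = 0.00114). DSC3 differed by 3.69 (SE 0.61, adjusted p = 0.00375), CLIC5 by 3.31 (SE 0.46, adjusted p = 0.00176) and MYT1 least, by 1.70 (SE 0.39, adjusted p = 0.0317). The MYT1 call was lost without unedited R369W replicate 2 or 4 or knockout R369W replicate 2 or 4 (adjusted p up to 0.136). With only these 6 libraries in the fit, CLIC5, MYT1 and DSC3 were lost (adjusted p = 0.0531, 0.0728 and 0.0705).

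In unedited cells R369W raised some of these genes above the nearly silent EV level. CLIC5 was read at 18.84, 25.91 and 3.79 CPM in replicates 2, 3 and 4 and rose by 6.08 (SE 0.74, edgeR adjusted p = 0.00738). MYT1, with 38, 76 and 35 reads against 1 in the EV group, rose at a ratio of 166 (95% counting interval 29.4 to 6602, adjusted p = 6.92e-04). CLIC5 and MYT1 are 2 of the only 3 genes called in this comparison, 0.0245% of those tested, the third being ETV6. That count is from the fit without pairs. With same-numbered unedited libraries treated as pairs, edgeR called 210 genes higher, 1.79% of those tested. BIRC7, with 35, 55 and 11 reads against 1, stood at a ratio of 113 (19.8 to 4489), and LMTK3 had 19, 33 and 3 reads against 5 (log2 3.54, SE 0.79), and both missed the threshold (adjusted p = 0.0772 and 0.467). DESeq2 called both (adjusted p = 4.83e-04 and 0.0114), and edgeR with no count filter called BIRC7 (0.0430) but not LMTK3 (0.375). All 3 R369W libraries lay above all 3 EV libraries for these 4 genes and for KNDC1, which had 1, 3 and 3 reads against 0 (adjusted p = 1); 2.81% of tested genes showed such a separation. KRT9 had 7 reads against 0 (adjusted p = 1), and DSC3 had 3, 4 and 21 reads against 9, 10 and 22 (log2 -0.35, SE 0.66, adjusted p = 1).

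CLIC5, BIRC7, LMTK3 and MYT1 were lowest in R369W replicate 4, and highest in replicate 3. ETV6 gene reads in those libraries were 1990, 2780 and 2735 CPM in replicates 2, 3 and 4, so the library lowest for CLIC5 was not the one lowest for ETV6. As a percent of knockout EV, unedited R369W means were 30.4% for MYT1, 7.08% for CLIC5, 5.79% for BIRC7 and 2.77% for LMTK3. CLIC5 was lost without unedited EV replicate 3 (edgeR adjusted p = 0.0770) or replicate 4 (0.110), while BIRC7 and LMTK3 passed without R369W replicate 4 (0.00905 and 0.0140). When same-numbered unedited libraries were treated as pairs, a block in the fit of those 9 libraries, BIRC7 passed (edgeR adjusted p = 7.32e-05) beside CLIC5 and MYT1, and 251 genes were called. In a fit of only the 6 libraries compared, CLIC5 and MYT1 were lost (adjusted p = 1 and 0.379).

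The variant was also set against wild-type ETV6 in unedited cells. Here 4 of the 7 genes, CLIC5, BIRC7, LMTK3 and MYT1, were called higher with R369W, where 1.13% of tested genes were. These 4 and KNDC1 lay above every ETV6 library in every R369W library, as did 7.09% of tested genes. CLIC5 had 619 reads against 0, at least 211-fold higher (adjusted p = 3.65e-04), MYT1 149 against 0, at least 50.8-fold (7.55e-05), and BIRC7 101 against 0, at least 34.4-fold (0.00388). LMTK3, with 55 reads against 1, stood at a ratio of 56.2 (95% counting interval 9.68 to 2261, adjusted p = 0.0134). LMTK3 has too few reads in unedited cells to pass the count filter there and was tested through its knockout reads; with no filter its adjusted p was 0.0109. Leaving out ETV6 replicate 2, 3 or 4, or R369W replicate 3, ended the LMTK3 call (adjusted p up to 0.0780). KNDC1 had 7 reads against 1 and KRT9 7 against 0 (adjusted p = 0.488 and 0.599), which is too few to show a difference at this depth. DSC3 had 28 reads against 33 (log2 -0.22, SE 0.68, adjusted p = 0.998). With only these 6 libraries in the fit, CLIC5, BIRC7 and MYT1 were lost (adjusted p = 0.106, 0.147 and 0.0551).

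Adding ETV6 to unedited cells gave 0 calls among the 7, against 0.302% of tested genes in either direction, also 0 by DESeq2 and 0 at an unadjusted p under 0.05. CLIC5 went from 10 reads to 0, at least 3.06-fold lower (edgeR adjusted p = 1), with every EV library above every ETV6 library, as for 5.26% of tested genes. With same-numbered unedited libraries treated as pairs, the edgeR adjusted p of CLIC5 was 0.0522, just over the threshold, where 956 genes were called. LMTK3 had 1 read against 5. BIRC7, MYT1, KRT9 and KNDC1 were at or under 3 reads in both groups, so a further fall was not detectable at this depth. DSC3, with the most reads in unedited EV cells, had 33 against 41 (log2 -0.14, SE 0.65, adjusted p = 1), and the sign of that difference turned without EV replicate 4 (0.25).

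DSC3 followed another order of groups than the rest. Its mean CPM ran from 52.5 in knockout EV through 9.63 in knockout R369W and 3.54 in knockout ETV6, with no overlap between neighbours in this order, to 0.932, 0.848 and 0.725 in unedited EV, ETV6 and R369W cells, which overlapped. For MYT1 and CLIC5, unedited R369W lay above knockout ETV6 with no overlap (3.88 against 0.180 CPM, and 16.2 against 1.08). For BIRC7 (2.64 against 1.29) and LMTK3 (1.44 against 0.873) these groups overlapped, and for KRT9 and KNDC1 the order was turned, 0.184 against 0.776 and 0.182 against 0.362, with overlap. Across the 18 libraries, Pearson's r of log2 CPM between each gene and the mean of the other 6 was 0.802 for DSC3, 0.900 for MYT1 and 0.952 to 0.985 for the other 5. These libraries share groups and depth, and r is a description only.

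Genes next to these 7 on the chromosome were compared in the same libraries. The 7 lie on 6 chromosomes (GRCh38, GENCODE release 29): CLIC5 on chromosome 6, 45880827 to 46080348, minus strand; LMTK3 on chromosome 19, 48485271 to 48513935, minus; KRT9 on chromosome 17, 41565841 to 41572058, minus. KNDC1 lies on chromosome 10, 133160447 to 133226412, plus, and DSC3 on chromosome 18, 30990008 to 31042815, minus. BIRC7, 63235883 to 63240507, and MYT1, 64102394 to 64242253, both lie on the plus strand of chromosome 20. Of the 28 protein-coding genes that are the nearest pair on each side, 27 were in the table and 10 had enough reads to test. In knockout against unedited EV cells 0 of the 10 were called by edgeR, where 4.33% of tested genes were, with 2 at an unadjusted p under 0.05 and 0 called by DESeq2. With ETV6 added back to knockout cells edgeR again called 0 of the 10, where 1.83% of tested genes were called, with 2 at an unadjusted p under 0.05.

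Around BIRC7, YTHDF1, an m6A reader 19.6 kb away, stood at 92.1 ± 1.51 CPM (SD, n = 3) against 88.3 ± 26.0 in unedited EV cells, and NKAIN4, which ends 0.3 kb from BIRC7, had 1 read against 0. Next to LMTK3, CYTH2, an Arf exchange factor 3.0 kb away, stood at 112 ± 4.72 against 114 ± 7.43 CPM. DSC2, the sister cadherin 16.0 kb from DSC3, stood at 80.8 ± 16.3 against 52.9 ± 12.2 CPM (log2 0.59, SE 0.25, adjusted p = 0.223), and DSC1 had 0 reads. With ETV6 added back DSC2 stood at 45.2 ± 13.2 CPM (log2 -0.85 from knockout EV, SE 0.25), which edgeR did not call (adjusted p = 0.126) and DESeq2 did (0.0365). RUNX2, a bone transcription factor 216.5 kb from CLIC5, had 121 reads against 25 (log2 2.08, SE 0.71, adjusted p = 0.123), and 37 with ETV6 added back (log2 -1.43, SE 0.68, adjusted p = 0.416). Around KRT9, the keratins KRT14 and KRT15 had 0 reads in both groups, and KRT16 had 11 against 0. In knockout cells KRT16 had 0 reads with ETV6 added back and 10 with R369W. OPRL1, 1.8 kb from MYT1, had 22 reads against 3, and in knockout cells 3 with ETV6 added back and 12 with R369W. KRT16 and OPRL1 had too few reads to test. In knockout R369W against unedited EV cells 1 of the 10 was called, where 9.31% of tested genes were: PCMTD2, beside MYT1, was lower (log2 -0.58, SE 0.16, adjusted p = 0.0330), a call that ended in 4 of the 6 fits with 1 library left out (adjusted p up to 0.148).

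Of 61 tested relatives and partners of these genes, edgeR called 5 between the EV groups, 8.20% against 4.33% of all tested genes, 3 higher and 2 lower in knockout cells. Among 13 tested genes of the inhibitor of apoptosis family, their antagonists and caspases, BIRC2, an inhibitor that acts as a ubiquitin ligase, was higher in knockout than unedited EV cells (53.4 ± 4.37 against 39.9 ± 2.91 CPM, SD, n = 3; log2 0.40, SE 0.10, edgeR adjusted p = 0.0439) and 0 were lower, with a list median of 0.11 against 0.00 for all genes to 2 decimals. That call was lost without 5 of the 6 libraries, all but knockout EV replicate 2 (adjusted p up to 0.189). With ETV6 added back, edgeR called 1 of the 61 against knockout EV, 1.64% beside 1.83% of all tested genes. This was XIAP, a direct caspase inhibitor, which fell from 31.5 ± 2.71 to 21.8 ± 0.659 CPM (log2 -0.54, SE 0.10, edgeR adjusted p = 0.00682). The call held without each library in turn. In knockout R369W cells XIAP stood at 23.1 ± 1.24 CPM. DESeq2 called it lower there than in knockout EV cells (log2 -0.43, adjusted p = 0.0122), while edgeR called 0 genes of this list. XIAP and BIRC6 were also lower in knockout R369W than in unedited EV cells (log2 -0.36 and -0.29, adjusted p = 0.0330 and 0.0365; lost without 4 and 6 of the 6 libraries, adjusted p up to 0.124 and 0.126).

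Of 11 tested CLIC genes and ezrin partners, edgeR called 0 between the EV groups (2 at an unadjusted p under 0.05, DESeq2 0; median 0.01). CLIC2, a relative of CLIC5, was lower in knockout R369W cells than in unedited EV cells (59.7 ± 14.5 against 95.4 ± 6.95 CPM; edgeR adjusted p = 0.0227; lost without 4 of the 6 libraries, up to 0.110). DESeq2 also called PODXL, the podocyte membrane protein podocalyxin, higher there (log2 1.45, adjusted p = 0.0287). Of 7 tested desmosome genes, PKP4, a plakophilin, was lower in knockout EV cells (154 ± 6.04 against 193 ± 14.7 CPM, adjusted p = 0.0336; lost without 4 libraries, up to 0.135), while the list median was 0.29. Of 19 keratins only 3 were tested. KRT10, an epidermal keratin, was higher in knockout R369W than in unedited EV cells (8.30 ± 2.53 against 3.89 ± 0.267 CPM, adjusted p = 0.0235; lost without 5 libraries, up to 0.0815).

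MYT1L and ST18, the other genes of the MYT1 family, had 0 reads in all 18 libraries. LMTK2, a relative of LMTK3, was lower in knockout EV cells (25.1 ± 2.62 against 33.2 ± 1.86 CPM, adjusted p = 0.0445; lost without 5 libraries, up to 0.181). Of 13 tested Ras and Rap exchange factors, RALGPS1, a Ral exchange factor, was higher in knockout EV cells (5.53 ± 0.742 against 2.84 ± 0.246 CPM, log2 0.94, SE 0.18, adjusted p = 0.00816), held without each library in turn, and 0 were lower. Of 13 tested corepressor partners of ETV6, HDAC3, the deacetylase of the NCOR complex, was higher in knockout EV cells (242 ± 7.49 against 166 ± 10.1 CPM, log2 0.53, SE 0.10, adjusted p = 0.00579), also held without each library in turn, with 0 lower and a median of -0.055. With ETV6 added back HDAC3 stood at 248 ± 24.5 CPM, still above unedited EV cells (log2 0.55, SE 0.10, edgeR adjusted p = 0.00587). In that comparison edgeR called 3 of the 61, 4.92% against 4.63% of all tested genes. CLIC2 and XIAP were the others, both lower (edgeR adjusted p = 0.0413 and 0.0124). Between knockout R369W and unedited EV cells edgeR called 10 of the 61, 16.4% against 9.31% of all tested genes. The 5 higher were HDAC3, HDAC1, RALGPS1, RGL1 and KRT10, and the 5 lower XIAP, BIRC6, CLIC2, PKP4 and LMTK2. The HDAC3 call (adjusted p = 0.00206) held without each library in turn, and each of the others was lost without 2 or more. In the 3 comparisons among unedited groups edgeR called 0 genes of any of these lists, with at most 2 in a list at an unadjusted p under 0.05, and DESeq2 called 1, the deacetylase HDAC2, lower with R369W than with ETV6 (log2 -0.21, adjusted p = 0.0375).

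Few markers of the tissues where these genes are best known were read. Of 15 neuronal markers, SNAP25, STMN2, GAP43 and RBFOX3 had 0 reads in all libraries, and edgeR called 0 of the 4 tested between the EV groups (0 at an unadjusted p under 0.05, DESeq2 0). Their summed level was 4.99 to 31.5 CPM in unedited EV and 6.62 to 8.89 in knockout EV libraries. Of 16 keratinocyte and epithelial markers 15 were in the table; KRT5, KRT14, GRHL2 and IVL had 0 reads in all libraries, and edgeR called 0 of the 6 tested between the EV groups (1 at an unadjusted p under 0.05, DESeq2 1). Their summed level was 46.2 to 94.9 CPM in unedited EV and 56.3 to 97.0 in knockout EV libraries.

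The genes most like the 7 in pattern were FUCA1, BMP8B, LPCAT2, PTPRN2 and RALGPS1, by Pearson's r over the 18 libraries with the mean standardised log2 CPM of the 7 (0.951, 0.950, 0.945, 0.944 and 0.940). They are given as a description with no test. PTPRN2, a phosphatase-like protein of secretory vesicles, had 0 reads in unedited EV and ETV6 cells and averaged 3.87 ± 1.31 CPM (SD, n = 3) in knockout EV, 0.233 ± 0.157 in knockout ETV6 and 5.06 ± 2.80 in knockout R369W cells, with 0.0258 ± 0.0447 in unedited R369W cells. FUCA1, a lysosomal fucosidase, ran over a narrower range, from 14.4 ± 1.16 CPM in unedited ETV6 to 48.1 ± 7.49 in knockout EV cells. LPCAT2, a phospholipid acyltransferase, ran from 13.4 ± 2.31 to 68.8 ± 4.43 CPM in the same groups, with 60.05 ± 11.5 in knockout R369W cells. BMP8B, a secreted growth factor, ran from 15.1 ± 1.02 to 41.1 ± 1.13 CPM in those groups and stood at 24.1 ± 7.37 in unedited R369W cells.

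**Figure D1:**
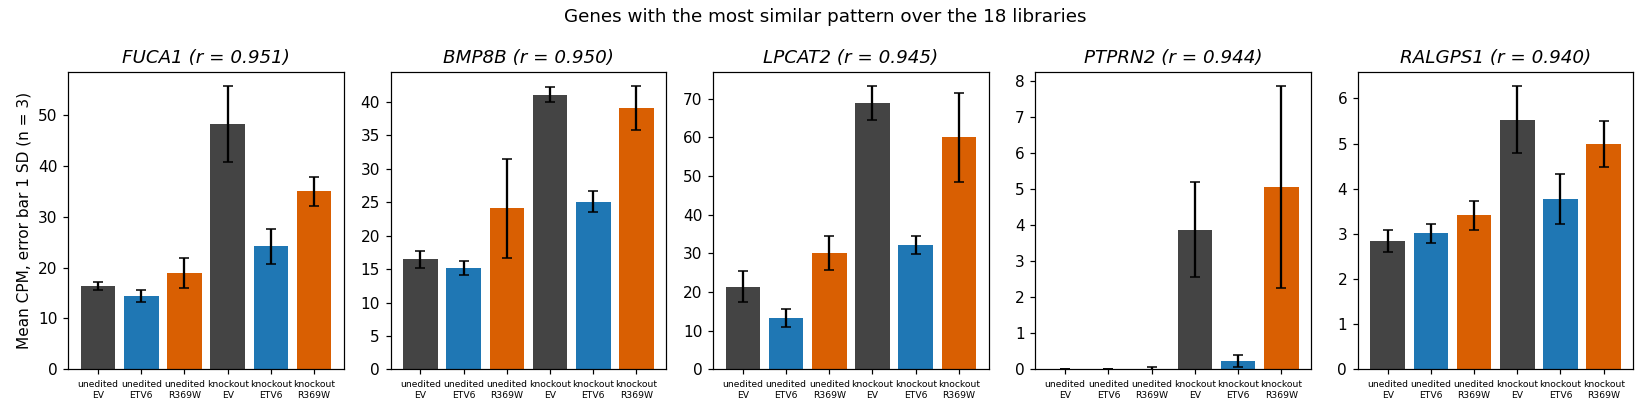
Mean CPM with an error bar of 1 SD (n = 3) in the 6 groups for the 5 genes of most similar pattern, each on its own axis from 0, with r over 18 libraries in each title. In each panel knockout EV and knockout R369W bars are the tallest pair.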

How the data were processed

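RNA was isolated with TRIzol and made into libraries with the Illumina TruSeq stranded mRNA protocol, per the labels' protocols. The authors deposited raw counts, whole reads per gene; the submitters' processing notes name HISAT2, SAMtools, HTSeq and GRCh38, and the sources used here give no versions, annotation or strand setting. Reads given to no gene (34.4% to 41.6% per library) were left out. Symbols came from a gene name table (20801 of 20833 identifiers) and GENCODE release 29 (31 more).

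Genes were kept by filterByExpr (12262), scaled by TMM and fitted with edgeR 4.0.16 in R 4.3.3, 1 mean per group over 18 libraries; quasi-likelihood F tests were two-sided, adjusted by Benjamini-Hochberg, with a threshold of 0.05. SE is the log2 change divided by the square root of F. Groups with 1 to 3 reads are given as a scaled read ratio with a 95% exact binomial interval, and groups with 0 as a bound from 3 reads; both cover counting error only. With 3 libraries a group, the smallest p of an exact permutation test is 0.1, so none was used. The fit was also run on simulated data with known fold sizes. No recovered fold size is given here, so that run does not show how well large changes from groups with almost no reads are estimated.

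The members, lists, comparisons and alternatives were chosen with earlier results of these data known. Named genes are the 7, ETV6, the nearest pair of protein-coding genes on each side, up to 4 called genes per list, and the 5 of most similar pattern (log2 CPM, prior count 2). Same-numbered unedited libraries of different vectors correlated at 0.695 to 0.856 in their deviation from group means across genes, so the replicate number was treated as pairing them; that the numbers mark a shared source is inferred from this alone. Alternatives were DESeq2 1.42.0, other scalings and filters, fits of 2 groups, a replicate block and libraries left out; leaving libraries out for list genes and neighbours was chosen after seeing the data.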

Additional observations from a re-analysis of the deposited data

Results flagged for a closer look

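The difference of CLIC5 between R369W and EV had opposite signs in the 2 genotypes. In unedited cells every R369W library lay above every EV library (log2 6.08, SE 0.74), and in knockout cells every R369W library lay below every EV library (log2 -0.46, SE 0.42), as did those of 10.9% of tested genes. The difference was not tested, because the knockout EV libraries chose the gene. Groups of 3 libraries were too small for a check of single libraries that stand apart.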

How the results depend on the processing

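Counts of genes called over the whole table moved with the model, in the order ETV6 against EV, R369W against EV and R369W against ETV6 in unedited cells, then knockout R369W against unedited R369W and against unedited EV. They were 37, 3, 147, 513 and 1141 as reported, 2, 1, 35, 89 and 251 with only the 2 groups in the fit, 956, 251, 1980, 1591 and 2601 with the replicate block, and 89, 13, 287, 1010 and 1757 with DESeq2. With a library left out they ranged from 11 to 41, 2 to 6, 90 to 131, 138 to 880 and 409 to 1529. The cause was not tested beyond the fewer samples in the smaller fits.

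Of the 7 genes, 0, 2, 4, 7 and 7 were called in the same order. With only the 2 groups in the fit the 2 and 4 became 0 and 0 and the first 7 became 4, DESeq2 called 4 in place of 2 (CLIC5, MYT1, BIRC7 and LMTK3), and no count filter gave 3 (CLIC5, MYT1 and BIRC7). With a library left out the counts ranged from 0 to 0, 1 to 4, 3 to 4, 6 to 7 and 7 to 7. With the replicate block they were 0, 3, 3, 7 and 7; LMTK3 was not tested in the 9 unedited libraries, and BIRC7 was the only call that the block changed. The block in the last 2 comparisons has no support from the knockout R369W numbers.

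The sign turned only for DSC3 among unedited groups, with no call on either side, over ranges of -0.47 to 0.25, -1.71 to 0.048 and -1.57 to 0.184 with a library left out. It turned to 0.25 and 0.065 for ETV6 against EV without EV replicate 4 or ETV6 replicate 3, to 0.035, 0.048 and 0.005 for R369W against EV without EV replicate 4 or R369W replicate 2 or 3, and to 0.116, 0.184 and 0.141 for R369W against ETV6 without ETV6 replicate 2 or R369W replicate 2 or 3. Depth limits statements on BIRC7, MYT1, KRT9 and KNDC1 in unedited EV and ETV6 cells, where 0 or 1 read was counted per group.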

Other observations

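Knockout R369W libraries deviated together with differently numbered knockout EV libraries. Across all tested genes, the deviation of EV replicates 1, 2 and 4 from their group mean correlated at 0.756, 0.872 and 0.787 with that of R369W replicates 4, 1 and 2, against -0.494, -0.581 and -0.16 with the R369W libraries of the same number. KRT9 stood at 39.89, 20.69 and 12.70 CPM in EV replicates 1, 2 and 4 and at 45.38, 22.22 and 14.19 CPM in R369W replicates 4, 1 and 2. LMTK3 in the same libraries stood at 58.96, 34.72 and 61.70 CPM and at 31.57, 33.67 and 62.98 CPM, and KNDC1 at 7.13, 10.81 and 10.52 and at 3.28, 10.30 and 8.63 CPM. CLIC5 stood at 234.5, 196.9 and 254.4 CPM and at 147.8, 166.1 and 176.2 CPM, and BIRC7 at 68.21, 26.75 and 41.83 CPM and at 52.24, 35.15 and 54.20 CPM. MYT1 stood at 16.01, 12.65 and 9.58 CPM and at 13.73, 12.62 and 12.01 CPM. DSC3 stood at 78.46, 28.74 and 50.40 CPM and at 13.88, 7.43 and 7.58 CPM. In these libraries the order of levels was the same for KRT9, KNDC1, MYT1 and DSC3 and differed for CLIC5, BIRC7 and LMTK3. This was noticed in the data, no label supports another pairing, and group means and tests without a block do not depend on it.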
